A study of Mus musculus with 6 samples.

Results

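The BCL2 family of apoptosis regulators is described here through 10 of its genes, chosen by symbol: Bcl2, Bcl2l1, Mcl1, Bax, Bak1, Bid, Bad, Bbc3, Pmaip1 and Bcl2l11. All 10 were found among the 18864 gene symbols of the deposited table. RNA was sequenced from satellite cells, which are muscle stem cells, taken from the gastrocnemius muscle of mice, enriched over fibroblasts by serial plating, and moved to differentiation medium. The strain is spelled C57Bl/6 in the series description and C56Bl/6 in the sample labels. BAPN cultures (n = 3) received 0.25% BAPN (beta-aminopropionitrile, an inhibitor of the collagen-crosslinking lysyl oxidases) for 24 h, and control cultures (n = 3) received none. Both groups were grown on matrigel (4%), a coating of basement membrane proteins, and no genetic change is named for either. Sources disagree on the age of the mice, 8 weeks in the sample labels against 6 weeks in the protocol of growth, and on the serum of the medium, horse at 4% or fetal calf at 10%. By its labels, the study addresses how inhibiting lysyl oxidase affects muscle differentiation.

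Proteins of the BCL2 family decide whether the outer membrane of the mitochondrion stays intact. The effectors BAX and BAK form pores in it and release cytochrome c, which starts the caspase cascade. Anti-apoptotic members such as BCL2, BCL-XL and MCL1 hold the effectors in check, and BH3-only members, named for the short domain they share, are induced or activated by stress and either occupy the anti-apoptotic proteins or activate the effectors directly. In cultured myoblasts, some cells die by apoptosis when growth medium is replaced by differentiation medium. Transcript levels say nothing of protein amount, cleavage or phosphorylation, by which several of these proteins are controlled.

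Of the BH3-only genes that changed, Bcl2l11 (BIM) and Bbc3 (PUMA) are the pair that rose. Both have a promoter in which the core motif of FOXO factors was found. Pmaip1 (NOXA), which fell, was left out of the search by name, so it could not have been found with the core. No falling BH3-only gene can therefore be set beside the pair, and whether the motif goes with the direction of change was not tested. The promoter windows shown were chosen because they hold the FOXO core, and the other annotated windows of both genes hold none. They are RefSeq sequences of build GRCm38.p6, reaching from 250 bases before to 50 bases after an annotated start, written 5′ to 3′ along the plus strand, with the FOXO core in capitals. The window of Bcl2l11 is chr2:128125788-128126087, plus strand, at the first of its 2 annotated starts. The window of Bbc3 is chr7:16310011-16310310, plus strand, at the second of its 3 annotated starts, where the core lies on the opposite strand and is read here as its reverse complement.
Bcl2l11 promoter: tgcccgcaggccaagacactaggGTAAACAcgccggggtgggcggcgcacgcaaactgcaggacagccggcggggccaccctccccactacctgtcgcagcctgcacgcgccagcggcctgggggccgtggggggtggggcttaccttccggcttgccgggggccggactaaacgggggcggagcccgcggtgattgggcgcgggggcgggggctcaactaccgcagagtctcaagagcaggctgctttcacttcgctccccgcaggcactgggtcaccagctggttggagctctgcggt
Bbc3 promoter: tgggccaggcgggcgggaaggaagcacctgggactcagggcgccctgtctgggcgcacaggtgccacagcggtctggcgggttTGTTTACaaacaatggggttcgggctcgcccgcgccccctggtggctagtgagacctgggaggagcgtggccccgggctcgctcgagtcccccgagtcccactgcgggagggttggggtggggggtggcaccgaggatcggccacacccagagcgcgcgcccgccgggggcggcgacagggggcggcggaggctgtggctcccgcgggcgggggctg

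The FOXO core was searched as GTAAACA on both strands. It was present in 2 of the 15 promoter windows of the 9 members looked up, which do not include Pmaip1, whose promoter was not searched, and in 3.7% of 32544 distinct promoter windows of the same length. In the Bcl2l11 window it began at position -227 from the start, and in the Bbc3 window at -167. The C/EBP-ATF composite TGATGNAA was in 0 of the 15 windows (3.9% of all windows). The hypoxia response core ACGTG was in 2 (19.7% of all), of which the third Bbc3 window overlaps the one printed, and the other belongs to Bax. The GC box GGGCGG was in 10 of the 15 (35.9% of all). These were every window of Bcl2, Mcl1, Bax, Bid, Bbc3 and Bcl2l11, and the first of the 2 windows of Bad. GC boxes and the hypoxia core were also searched on both strands, and the hypoxia core overlaps its own complement where it reads CACGTG. A match describes the letters of a window and does not show that a factor binds there. Whether a FOXO factor acted on Bcl2l11 or Bbc3 in these cultures was not tested. Foxo3, a FOXO factor known to act on both genes and named here after its values were seen, averaged 2895 ± 288 normalized counts with BAPN and 2239 ± 234 in controls (n = 3 each, SD). In edgeR its log2 fold change was 0.37 (SE 0.10, adjusted p = 0.0208). That call was lost when BAPN replicate 1 or either of control replicates 1 and 2 was left out, and with replicates 1 and 2 summed. Of the other FOXO genes listed, Foxo4 was lower (log2 fold change -0.28, edgeR adjusted p = 0.0355, a call described further among the transcription factors) and Foxo1 did not pass (log2 fold change 0.18, edgeR adjusted p = 0.139).

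Total counts per library ranged from 17125602 to 18682099. All values below are normalized counts, the deposited count divided by the authors' size factor of the library, unless another scale is named. Replicates 1 and 2 of each group lay close together but differed by more than sampling noise: the chi-square per gene was 2.12 between them with BAPN and 2.31 in controls, where 1 marks pure counting error, and lay between 20.07 and 24.01 in comparisons with replicate 3. RNA integrity was above 8.1 in most samples and below 7.5 in 2 that the labels do not identify, so the part of RNA quality in the results was not tested. The label of muscle cells was met by 6 of 6 muscle markers, of which 5 fell with BAPN. The summed level of these markers was between 263994 and 338750 with BAPN and between 558242 and 741519 in controls. Of 6 fibroblast markers 2 fell and 0 rose, with sums of 3032 to 3712 with BAPN and 4756 to 6256 in controls. Col1a1 and Col3a1 made up most of these sums. Pdgfra, which was not called, lay between 53.9 and 85.2 with BAPN and between 30.9 and 53.9 in controls. Of 6 macrophage markers, Cd68 and Cd14 rose, with sums of 253 to 408 with BAPN and 98 to 126 in controls, while Ptprc was between 0 and 0.9 with BAPN and between 1.0 and 5.5 in controls, and Adgre1 reached at most 2.1 in any library. Of 4 smooth muscle markers 2, Notch3 and Rgs5, fell (sums of 1111 to 1737 with BAPN and 2872 to 3093 in controls). Notch3 made up most of these sums, with 1028 to 1624 with BAPN and 2659 to 2821 in controls. Myh11 reached at most 8.8 and Cnn1 at most 4.1 in any library. Sums were low in both groups for markers of adipocytes (15 to 23 with BAPN, 5 to 32 in controls), endothelium (86 to 134 with BAPN, 81 to 102 in controls) and Schwann cells (41 to 51 with BAPN, 40 to 49 in controls). The part of cell composition in the family's changes was not tested, and in bulk RNA fewer cells of a type and less RNA per cell cannot be told apart.

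Across the family, 2 members rose with BAPN, 2 fell and 6 did not pass the test (edgeR quasi-likelihood test, Benjamini-Hochberg adjusted p under 0.05 over all tested genes). All 10 members passed the filter on low values. The background is high in this comparison: of 13714 tested genes, 15.6% were called higher and 20.8% lower, 36.4% in either direction. The count of 4 called among 10 is therefore close to the share of all genes. For 4 of the 10 members the BAPN libraries all lay on one side of the control libraries, a separation also seen for 51.0% of all tested genes. The median log2 fold change was -0.005 over the members and -0.032 over all tested genes, and the median of its absolute size was 0.18 over the members and 0.26 over all tested genes.

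**Figure D1:**
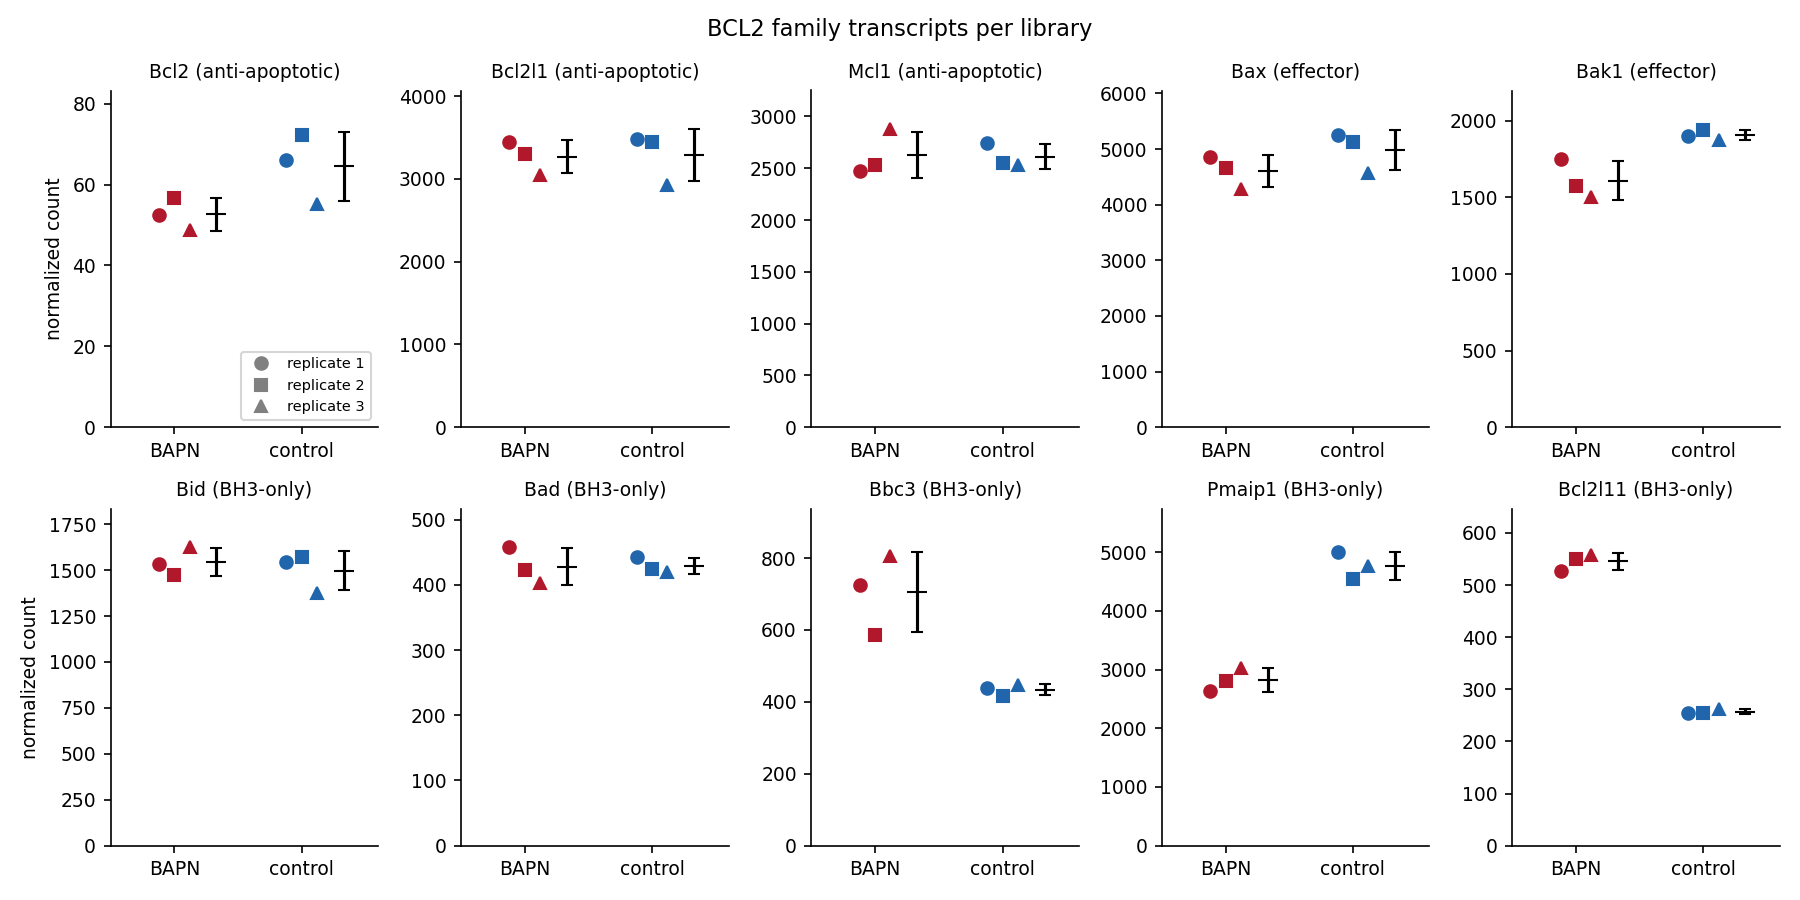
Normalized counts of the 10 BCL2 family genes in each library, with BAPN libraries (red) left of control libraries (blue), symbols for replicate numbers and bars for mean ± SD (n = 3). The groups are apart for Bak1, Bbc3, Pmaip1 and Bcl2l11 and overlap for the other 6 genes.

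None of the 3 anti-apoptotic genes passed the test. Mcl1 (chromosome 3, 95658788 to 95663176, GRCm38), which encodes a short-lived protein that holds BAK in check, had normalized counts of 2476, 2529 and 2879 with BAPN replicates 1 to 3, and 2747, 2555 and 2530.1 in control replicates 1 to 3. The groups overlapped, and the log2 fold change was 0.009 (SE 0.075, edgeR adjusted p = 0.937), with a 95% interval from -0.16 to 0.18. Bcl2l1 (chromosome 2, 152780668 to 152831728), the gene of BCL-XL, had 3447, 3296 and 3051 with BAPN and 3487, 3441 and 2920.3 in controls. Its groups also overlapped, with replicate 3 the lowest in each, and the 95% interval of its log2 fold change reached from -0.21 to 0.19 (estimate -0.008, edgeR adjusted p = 0.951). For both genes, changes larger than about 0.21 in either direction lie outside the interval. The 2 splice forms of Bcl2l1 with opposite activity, BCL-XL and BCL-XS, are counted together in gene-level data.

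Bcl2 itself (chromosome 1, 106538178 to 106714274), the founding member of the family, had the lowest level per kb of exon. It had raw counts of 56, 61 and 47 with BAPN and 65, 71 and 50 in controls, or normalized counts of 52.5, 56.8 and 48.7 with BAPN and 66.2, 72.2 and 55.3 in controls. The highest BAPN library overlapped the lowest control library. The log2 fold change was -0.29 (SE 0.17, edgeR adjusted p = 0.206) with a 95% interval from -0.68 to 0.093, the widest among the members. Counting error is part of that width: the exact 95% Poisson interval of the 47 counts of BAPN replicate 3 runs from 34.5 to 62.5, and that of the 50 counts of control replicate 3 from 37.1 to 65.9.

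Of the pore-forming effectors, Bak1 fell by a small amount and Bax did not pass the test. Bak1 (chromosome 17, 27019810 to 27029009), whose protein resides in the outer mitochondrial membrane, had normalized counts of 1752, 1577 and 1500.4 with BAPN and 1903, 1939 and 1875 in controls. Every BAPN library lay below every control library. The log2 fold change was -0.24 (SE 0.07, edgeR adjusted p = 0.0278), a level 0.85 times that of controls. This call was lost with TMM scaling (log2 fold change -0.20, edgeR adjusted p = 0.0569), when BAPN replicate 2 (0.0981), control replicate 1 (0.0813) or its replicate 2 (0.089) was left out, and with replicates 1 and 2 of each group summed into 1 library (0.131). Over all alternatives the adjusted p of Bak1 ranged from 0.00148 to 0.131. Exons of Bak1 overlap Ggnbp1 on the opposite strand, a gene with a mean of 45.2 with BAPN and 62.1 in controls, and no strand setting of the counting is given in the sources used here.

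Bax (chromosome 7, 45461697 to 45466898), which encodes an effector that moves from the cytosol to mitochondria when activated, had the highest level per kb of exon. It had normalized counts of 4856, 4661 and 4290 with BAPN and 5257, 5132 and 4574 in controls. Replicate 3 was the lowest of each group, and the control value of replicate 3 lay below the BAPN values of replicates 1 and 2. Its log2 fold change was -0.12 (SE 0.08, edgeR adjusted p = 0.275), with a 95% interval from -0.30 to 0.06. With both libraries of replicate 3 left out it was called lower (-0.13, edgeR adjusted p = 0.0125), a fit that rests on the close replicates 1 and 2 alone, and over the other alternatives its adjusted p was between 0.0894 and 0.564.

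The 5 BH3-only genes went in different directions. Bcl2l11 (chromosome 2, 128126038 to 128162547), the gene of BIM, which binds all the anti-apoptotic members, had normalized counts of 527, 549.5 and 558.5 with BAPN and 255, 254 and 262 in controls. The libraries of each group were close together and the lowest BAPN value was above the highest control value by more than either group's spread. The log2 fold change was 1.08 (SE 0.07, edgeR adjusted p = 0.000136), a 2.12-fold higher level with a 95% interval from 1.88 to 2.39. This was the largest change in the family in either direction, and it ranked 497 from the highest among the 13714 tested genes. In same-numbered pairs of libraries the log2 difference was 1.05, 1.11 and 1.09. Reads of its main splice forms, BIM-EL, BIM-L and BIM-S, are counted together.

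Bbc3 (chromosome 7, 16308393 to 16318205), the gene of PUMA, a classical p53 target that binds all the anti-apoptotic members, rose as well. Its normalized counts came to 725, 586 and 805 with BAPN and 438, 417 and 447 in controls. All BAPN libraries were above all control libraries, but they differed more among themselves, with an SD of 111 with BAPN and 15.4 in controls. Its log2 fold change was 0.70 (SE 0.12, edgeR adjusted p = 0.00337), a 1.63-fold higher level with a 95% interval from 1.35 to 1.96. It was between 0.60 and 0.82 when 1 library was left out. The lowest and highest of these came without BAPN replicate 3 and without BAPN replicate 2.

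Pmaip1 (chromosome 18, 66458533 to 66465565), the gene of NOXA, another p53 target that binds chiefly MCL1, moved the opposite way. It had normalized counts of 2634, 2809 and 3034 with BAPN and 5004, 4538 and 4760 in controls, with a wide gap between the groups. In edgeR this was -0.75 in log2 fold change (SE 0.07, adjusted p = 0.000384), a level 0.59 times that of controls with a 95% interval from 0.53 to 0.67. Its fold change ranked 839 from the lowest among the 13714 tested genes. The p53 gene itself, Trp53, named here after its values were seen, had 3015 ± 238 with BAPN and 2930.1 ± 410 in controls (n = 3 each, SD). Its log2 fold change was 0.04 with a 95% interval from -0.21 to 0.29 (edgeR adjusted p = 0.795).

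The remaining pair of BH3-only genes is controlled largely at the protein level and did not pass the test. Bid (chromosome 6, 120891930 to 120916853), whose protein is activated by caspase-8 cleavage, had normalized counts of 1531, 1473 and 1624 with BAPN and 1545, 1570.2 and 1376 in controls. The groups overlapped, with replicate 3 the highest with BAPN and the lowest in controls. Its log2 fold change was 0.04 (edgeR adjusted p = 0.672), with a 95% interval from -0.12 to 0.21. Bad (chromosome 19, 6941861 to 6951899), whose protein is held inactive by phosphorylation and 14-3-3 proteins, had 458, 423 and 402 with BAPN and 442, 424 and 419 in controls. Its log2 fold change was -0.002 (edgeR adjusted p = 0.987), with a 95% interval from -0.19 to 0.18. Exons of Bid overlap Bcl2l13 and those of Bad overlap Gpr137, each on the opposite strand. Exons of Bax overlap Gm45808 on the same strand, and those of Bcl2 overlap D630008O14Rik on the opposite one. Neither Gm45808 nor D630008O14Rik has a row in the deposited counts. How reads in any of these overlaps were assigned is not given in the sources used here.

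**Figure D2:**
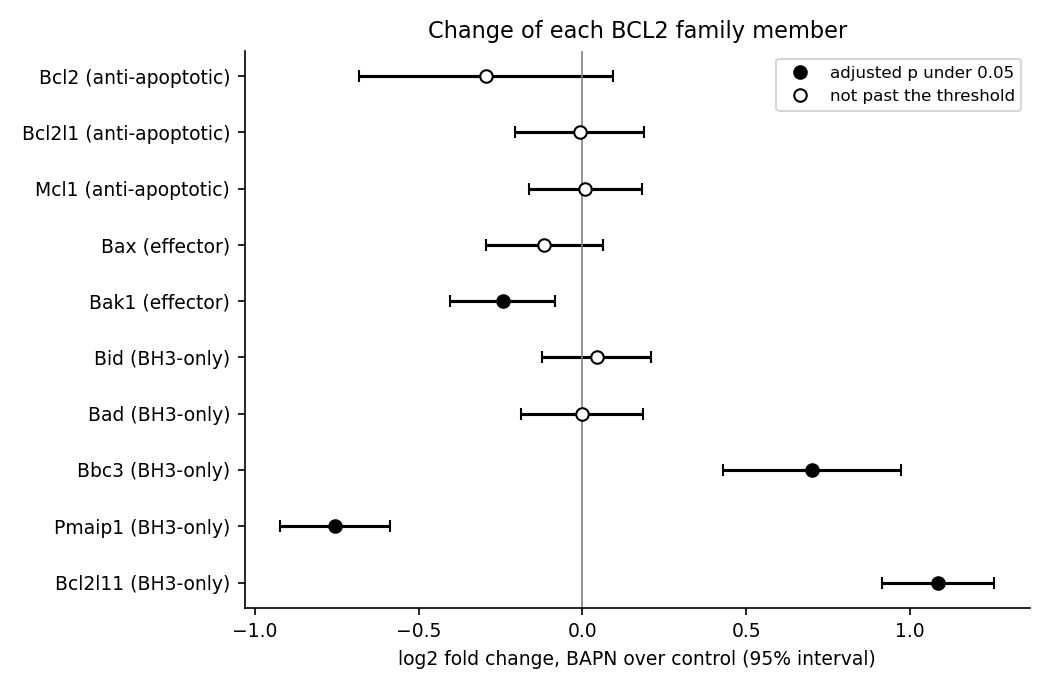
Log2 fold change of each member, BAPN over control, with its 95% interval from edgeR and filled points for an adjusted p under 0.05. Bcl2l11 and Bbc3 stand above zero at 1.08 and 0.70, Pmaip1 and Bak1 below zero at -0.75 and -0.24, and the intervals of the other 6 genes include zero.

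The authors' deposited table gives log2 fold changes of 1.085 for Bcl2l11, 0.694 for Bbc3, -0.754 for Pmaip1 and -0.245 for Bak1. The adjusted p-values in the authors' deposited table are 9.3e-17, 1.08e-07, 1.1e-15 and 0.0142 for the same genes in that order. The authors' deposited table places the other 6 members above an adjusted p of 0.05, the smallest being 0.275 for Bax.

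Levels of different members were compared per kilobase of annotated exon, as normalized counts per kb. With BAPN the order was Bax at 2920.1 ± 182, Pmaip1 at 1034 ± 73.4, Mcl1 at 769 ± 64.1, Bcl2l1 at 712 ± 43.6, Bak1 at 669 ± 53.5, Bid at 435 ± 21.4, Bbc3 at 332 ± 52.2, Bad at 167 ± 11.1, Bcl2l11 at 67.9 ± 2.00 and Bcl2 at 5.8 ± 0.44 (SD, n = 3). In controls it was Bax at 3165 ± 231, Pmaip1 at 1745 ± 85.3, Bak1 at 792 ± 13.4, Mcl1 at 764 ± 34.7, Bcl2l1 at 716 ± 68.6, Bid at 422 ± 29.7, Bbc3 at 204 ± 7.25, Bad at 167 ± 4.79, Bcl2l11 at 32.0 ± 0.55 and Bcl2 at 7.0 ± 0.94. Neighbours among Mcl1, Bcl2l1 and Bak1 lay within the sum of their SDs in each group, so their order is not resolved. Bcl2l11 rose but stayed the lowest member after Bcl2 on this scale, which divides by 8029 bases of exon for Bcl2l11 and 9157 for Bcl2, longer than for the other members. The exon lengths join all annotated transcripts, so members with long alternative ends are given too low a level where a shorter form is used.

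Summed by role on the same per-kb scale, the anti-apoptotic genes came to 1486 ± 24.3 with BAPN and 1487 ± 95.5 in controls, the effectors to 3589 ± 232 with BAPN and 3957 ± 241 in controls, and the BH3-only genes to 2036 ± 120.2 with BAPN and 2570.2 ± 94.9 in controls (n = 3 each, SD). Pmaip1 made up the greater part of the last sum in controls. The other 4 BH3-only genes summed to 1017, 925 and 1063 with BAPN and 846, 836 and 794 in controls. The direction of the BH3-only sum thus turned on whether Pmaip1 was counted, a split made after its values were seen.

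Ratios between members within a library do not depend on the size factors. The log2 ratio of Bcl2l11 to Mcl1 counts was -2.23, -2.20 and -2.37 with BAPN and -3.43, -3.33 and -3.27 in controls, a difference of 1.08. That of Bcl2l11 to Bcl2l1 was -2.71, -2.58 and -2.45 with BAPN and -3.78, -3.76 and -3.48 in controls, a difference of 1.09. For both, every BAPN library lay above every control library. Mcl1 and Bcl2l1 hardly moved (log2 fold changes 0.009 and -0.008), so these differences restate the rise of Bcl2l11. No ratio was formed with Pmaip1, which fell (log2 fold change -0.755), so the ratios do not describe the BH3-only genes as a group. The log2 ratio of Bcl2l11 to Bcl2 was 3.33, 3.27 and 3.52 with BAPN and 1.94, 1.82 and 2.24 in controls, a difference of 1.37 with no overlap. The widely used ratio of Bax to Bcl2 was 6.53, 6.36 and 6.46 with BAPN and 6.31, 6.15 and 6.37 in controls, a difference of 0.17 with overlapping groups. Within same-numbered pairs that ratio was higher with BAPN in all 3, by 0.22, 0.21 and 0.09, while Bax and Bcl2 were each lower with BAPN in all 3 pairs. In a two-sided exact permutation test the first 3 ratios gave p = 0.1, the smallest that 3 against 3 libraries allow, and Bax to Bcl2 gave p = 0.2. The paired exact permutation test gave p = 0.25 for each ratio, the smallest that 3 pairs allow. Adjusted over the 4 ratios by Benjamini-Hochberg, the exact p-values were 0.133 and 0.2, so none passed, and with Bcl2l11 in each of the first 3 they are not independent.

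**Figure D3:**
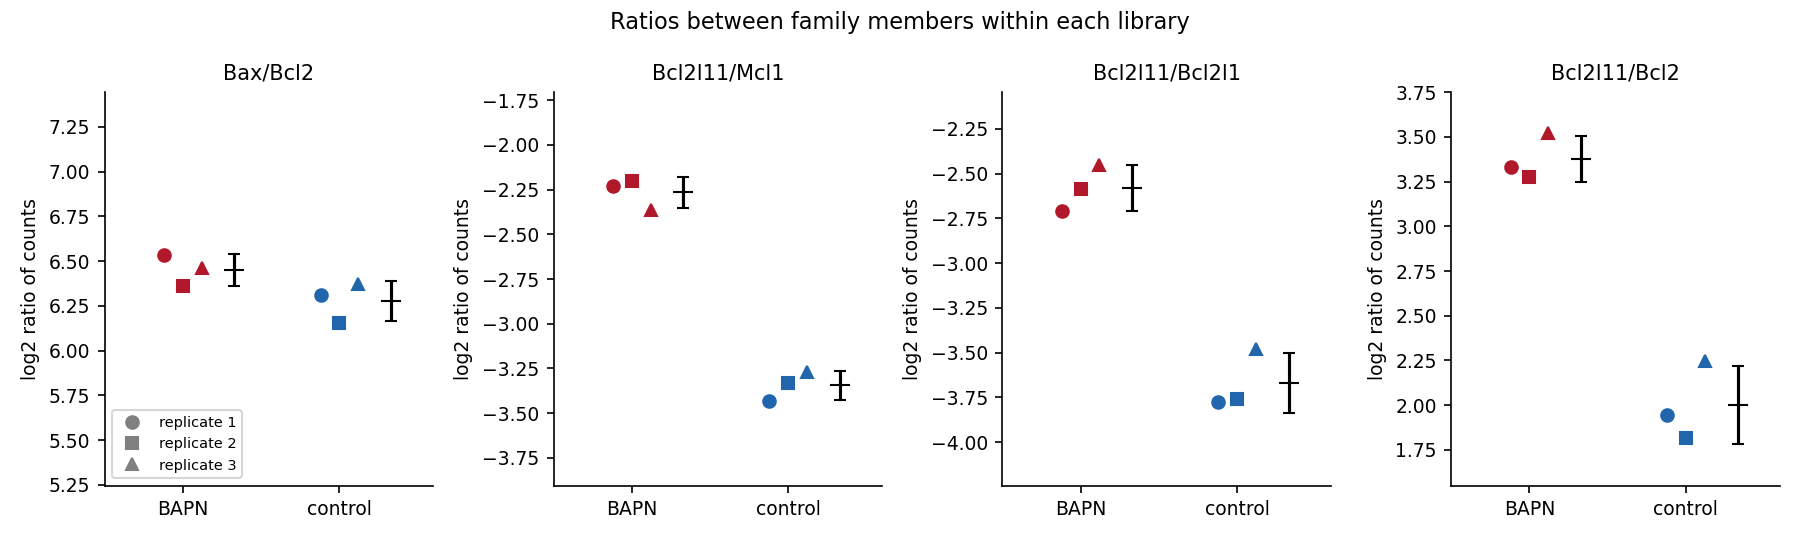
Log2 ratio of the raw counts of pairs of members within each library, BAPN (red) left of control (blue), with mean ± SD (n = 3) and an equal span of the axis in every panel. The 3 ratios with Bcl2l11 differ by 1.08 to 1.37 between the groups, and that of Bax to Bcl2 by 0.17.

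Around these genes, 6 lists of the apoptosis pathway were read in the same fit. Of 80 tested genes, 22 rose and 15 fell, beside 15.6% higher and 20.8% lower among all tested genes. Other BCL2 relatives and BH3 proteins had 2 higher and 2 lower of 10 tested, with a median log2 fold change of -0.12. Bnip3 and Bnip3l, mitochondrial BH3-like proteins known for mitophagy under low oxygen, rose by 1.76 (SE 0.16, edgeR adjusted p = 0.00033) and 0.95 (SE 0.07, edgeR adjusted p = 0.000169) in log2 fold change. Bnip3 had 4071, 4527 and 4869 with BAPN and 1064, 1239 and 1679 in controls. Bok, an effector-like relative of BAX and BAK, fell by 1.11 (SE 0.21, edgeR adjusted p = 0.00515), with 207, 192 and 131 with BAPN and 426, 431 and 290 in controls. Bcl2l13, a mitochondrial relative of BCL2, fell by 0.21 (SE 0.05, edgeR adjusted p = 0.0184). That call was lost without BAPN replicate 1 or 2 or control replicate 1 or 2, each of which left 1 member of the list lower. With replicates 1 and 2 summed, neither Bok (log2 fold change -1.11) nor Bcl2l13 (-0.21) was called, leaving 0 lower. Of the other 8 listed, 7 were below the filter and 1 had no row.

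Downstream of the family, genes of the apoptosome, the caspases and their nucleases went both ways, with 5 higher and 4 lower of 13 tested and a median log2 fold change of 0.22. Casp12, a caspase tied to endoplasmic reticulum stress in mice, Casp6, Apaf1, the scaffold that cytochrome c activates, and the initiator Casp9 were among those that rose, with adjusted p-values in edgeR of 0.00559, 0.0344, 0.034 and 0.0499 for log2 fold changes of 0.74, 0.40, 0.38 and 0.37. Without BAPN replicate 1 or BAPN replicate 2 the number of higher genes was 1, Casp12, without control replicate 1 or 2 it was 2, and without control replicate 3 it was 3. With replicates 1 and 2 summed it was 0. Among the members that fell were the nuclease inhibitor Dffa, the mitochondrial flavoprotein gene Aifm1 and the caspase substrate Parp1. Their log2 fold changes were -0.51, -0.27 and -0.42, at adjusted p-values in edgeR of 0.0041, 0.0074 and 0.00109. Casp9 lost its call also with no filter. With replicates 1 and 2 summed, 1 gene of the list was lower.

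Among inhibitor of apoptosis proteins and their antagonists, 0 rose and 2 fell of 7 tested (median -0.036). At an unadjusted p under 0.05, 0 were higher in edgeR, and 0 passed as higher in DESeq2 or limma, while with the replicate block Birc2 was called higher, making 1, and Birc5 lower, making 3. With replicates 1 and 2 summed the number higher was 0, and with both libraries of replicate 3 left out it was 2. The genes that fell encode mitochondrial proteins that block the inhibitors once released. Htra2 had 824, 751 and 879 with BAPN and 1459, 1352 and 1372 in controls, which edgeR put at -0.77 in log2 fold change (SE 0.08, adjusted p = 0.000399), and Diablo (SMAC) fell by 0.34 (SE 0.07, edgeR adjusted p = 0.00919). With replicates 1 and 2 summed, 1 of the 2 was called. In the death receptor pathway, which leads to BID cleavage, 2 rose and 0 fell of 9 tested (median 0.18). By edgeR at an unadjusted p under 0.05, and by DESeq2 and limma after adjustment, 0 fell. Leaving out both libraries of replicate 3 gave 1 lower. Cflar, the inhibitor of caspase-8 known as FLIP, had 845, 894 and 865 with BAPN and 683, 626 and 613.5 in controls (in edgeR, log2 fold change 0.44, SE 0.07, adjusted p = 0.00267). Ripk1, a kinase of the receptor complex, rose by 0.51 (SE 0.10, edgeR adjusted p = 0.00533), and 1 of the 2 was called with replicates 1 and 2 summed.

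Transcription factors known to act on BCL2 family genes had 11 higher and 1 lower of 17 tested, with a median log2 fold change of 0.37 against -0.032 over all tested genes. Ddit3, the gene of CHOP, which induces Bcl2l11 and Bbc3 under endoplasmic reticulum stress, had normalized counts of 1175, 1194 and 2996 with BAPN and 217, 200.2 and 204.5 in controls. BAPN replicate 3 stood far above the other BAPN libraries, all of which were above the controls. For Ddit3 the log2 fold change was 3.11 (SE 0.38, edgeR adjusted p = 0.00104), or 2.51 without BAPN replicate 3. Atf3, a stress-induced factor, was also highest in BAPN replicate 3, with 1159, 1170 and 2539 with BAPN and 225, 223 and 277 in controls (in edgeR, log2 fold change 2.75, SE 0.32, adjusted p = 0.000874). Jun, a subunit of AP-1, rose by 0.67 (SE 0.06, edgeR adjusted p = 0.000393). Foxo4 fell by 0.28 (SE 0.08, edgeR adjusted p = 0.0355), a call lost with TMM or median-ratio scaling, without BAPN replicate 1 or 2 or control replicate 1 or 3, and with replicates 1 and 2 summed. That summed fit called 7 factors higher.

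Binding partners, kinases and ubiquitin enzymes of the family had 2 higher and 6 lower of 24 tested, with a median log2 fold change of -0.019. The kinases Akt1 and Akt2, which phosphorylate BAD, fell: Akt2 had 4279, 4318 and 4777 with BAPN and 6811, 6598 and 7862 in controls (in edgeR, log2 fold change -0.67, SE 0.09, adjusted p = 0.00115), and Akt1 changed by -0.39 (SE 0.06, edgeR adjusted p = 0.00215). Dynll1, the dynein light chain that tethers BIM to microtubules, fell by 0.45 (SE 0.07, edgeR adjusted p = 0.00249). Gsk3b, a kinase that marks MCL1 for degradation, rose by 0.42 (SE 0.06, edgeR adjusted p = 0.00171). Pim2, another BAD kinase, rose by 0.49 (SE 0.16, edgeR adjusted p = 0.0404), a call lost without any 1 library other than BAPN replicate 3, which left 1 gene higher. With replicates 1 and 2 summed, 1 was higher and 2 were lower.

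**Figure D4:**
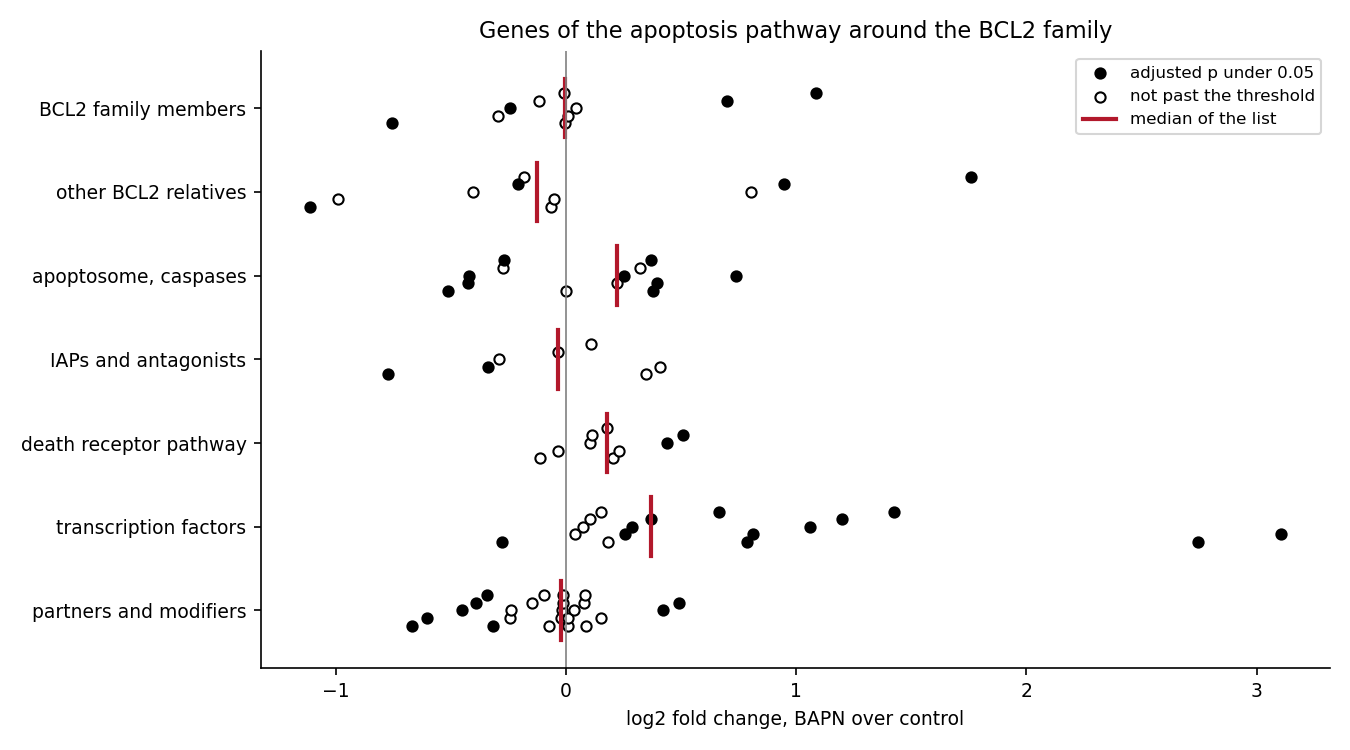
Log2 fold change, BAPN over control, of the 10 members and of each tested gene in 6 pathway lists, filled where the edgeR adjusted p was under 0.05, with the list median as a red line. Medians lie between -0.12 and 0.37, and the points farthest to the right are Ddit3 at 3.11 and Atf3 at 2.75.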

How the data were processed

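Per the labels' protocols, the libraries were read as single ends of 60 nt in 1 lane. The submitters' processing notes name cutadapt, STAR, HTSeq and DESeq2, and the build GRCm38 (mm10), with no version, annotation or strand setting. Raw counts for 18864 gene symbols (0 rows without a name) were deposited by the authors, per the file headers. The authors also deposited normalized counts, a signal equal to the count over 1 size factor per library, and log2 fold changes with p-values and adjusted p-values. Their other table holds the same normalized values.

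Of these genes, the 13714 whose normalized counts averaged at least 10 were tested in edgeR 4.0.16 (R 4.3.3, glmQLFit and glmQLFTest, no block), with the authors' size factors for scaling. Each SE was derived as the size of the log2 fold change over the square root of the edgeR F statistic. Intervals of 95% use this SE and the degrees of freedom of the test. The fit was tested on simulated data drawn as independent libraries, so that test does not cover the closeness of replicates 1 and 2. Alternatives used TMM and median-ratio scaling, DESeq2 1.42.0, limma 3.58.1, other filters, a replicate block, left-out libraries and replicates 1 and 2 summed. The series description calls the replicates independent without naming animals, and p-values reflect only how these libraries vary.

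The titles share replicate numbers between groups. Across genes, the deviations from the group mean correlated at 0.184, 0.190 and 0.366 between libraries of 1 number. BAPN replicate 1 correlated at 0.230 with control replicate 2, so the pairing of replicates 1 and 2 is not settled by these values. The main fit took no pairs. Same-numbered libraries were paired only in the replicate block, the paired ratio test and the differences given within pairs. The block changed the call of none of the 10 members.

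The 10 members and the 6 lists of pathway genes were chosen with earlier results of these data known. Named from each list were the called genes with the smallest p, up to 3 in each direction, and every called gene of a direction with 5 or fewer. Some genes that this rule names are counted but not reported here by name. Also named were the 3 genes closest in profile to the called member with the smallest p in each direction. Gene positions and exon lengths come from GENCODE M21 (GRCm38), which may not be the annotation of the authors, and promoter windows of 9 members from RefSeq. Poisson intervals cover counting error only.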

Additional observations from a re-analysis of the deposited data

How the results depend on the processing

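Of the members, Bcl2l11, Bbc3 and Pmaip1 kept their direction and call under all 16 alternatives, with log2 fold changes of 1.07 to 1.13, 0.60 to 0.82 and -0.81 to -0.71. The number of members lower was 1 in place of 2 with TMM scaling and with replicates 1 and 2 summed, and between 1 and 2 with a library left out. The gene lost was Bak1, whose log2 fold change was -0.20 with TMM, -0.26 with replicates summed and between -0.31 and -0.20 with a library left out. Bax was called lower (-0.13) with both libraries of replicate 3 left out. With the replicate block Bcl2l11 had a log2 fold change of 1.08, Bbc3 of 0.69, Pmaip1 of -0.76 and Bak1 of -0.25, and no other member was called. In the pathway lists the block added Bmf, Endog, Birc2 and Tnfrsf1a as higher and Bcl2l12, Birc5, Rps6ka1 and Ywhaz as lower. Over all tested genes, 716 were higher and 809 lower with replicates 1 and 2 summed, 3223 were higher with both libraries of replicate 3 left out, and between 1863 (without BAPN replicate 2) and 3113 were lower with 1 library left out. In the pathway lists, 11 genes were higher and 4 lower with replicates 1 and 2 summed, which leaves 2 libraries a group. The cause of the other changes was not tested. TMM and median-ratio scaling moved the median of all genes by 0.045 and 0.033 on the log2 scale. Among the members, Bcl2 had the fewest counts and the widest interval.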

Other observations

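Further BH3-only relatives, named after their values were seen, were expressed at low levels. Bmf, which is held at the actin cytoskeleton, had normalized counts of 79.6, 113 and 125 with BAPN and 46.9, 43.7 and 91.7 in controls. Its groups overlapped through control replicate 3, and it did not pass the test (in edgeR, log2 fold change 0.81, SE 0.31, adjusted p = 0.0721). It was called with the replicate block (0.83, edgeR adjusted p = 0.00572), in DESeq2 (0.0398), without control replicate 3 (1.22, edgeR adjusted p = 0.00912) and without both libraries of replicate 3, and its adjusted p over all alternatives ranged from 6.86e-05 to 0.227. Bik, near the filter on low values, had 7.5, 3.7 and 9.3 with BAPN and 16.3, 12.2 and 12.2 in controls (log2 fold change -0.99, edgeR adjusted p = 0.0688). It was called lower without BAPN replicate 3 and without both libraries of replicate 3, and its adjusted p ranged from 0.0256 to 0.195.

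The genes with the profile most like that of Bcl2l11, by Euclidean distance between centred log2 values over the 6 libraries, were Pde4b, a cyclic AMP phosphodiesterase (distance 0.084), Vat1l (0.14) and Zfp395 (0.15), with log2 fold changes of 1.13, 1.03 and 1.10. Those most like Pmaip1 were RP23-80D20.2 (0.081), Dbt, a subunit of the branched-chain keto acid dehydrogenase (0.095), and 2900026A02Rik (0.10). Their log2 fold changes were -0.75, -0.753 and -0.772. Over all alternatives the adjusted p of RP23-80D20.2 ranged from 0.0497 to 0.216, while that of Dbt reached at most 0.0249 and that of 2900026A02Rik at most 0.0176. Within a distance of 0.5 lay 244 genes for Bcl2l11 and 1125 for Pmaip1, so the nearest are examples of many.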
